A study of Mus musculus with 18 samples.

Results

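The islet transcripts that differed from control in both the TRAF2 and the TRAF3 beta cell knockout, on both chow and high-fat diet (HFD), are described here. All 12 knockout arrays of the series were set against its 6 control arrays, which together make up its 18 arrays. The 6 groups of 3 arrays each were TRAF2 knockouts (RIPCre; TRAF2loxP/loxP) on chow and on HFD, TRAF3 knockouts (RIPCre; TRAF3loxP/loxP) on chow and on HFD, and floxed littermate controls on chow and on HFD. All mice were on a C57BL/6 background, of both sexes and 16 weeks old, and the HFD, with 45% of its energy as fat, was given for 8 weeks from the age of 8 weeks. Biotin-labelled RNA from whole isolated islets was hybridised to whole-transcript arrays starting from 250 ng of total RNA. In RIPCre, the promoter of a rat insulin gene drives the recombinase, so deletion is aimed at beta cells. The controls' labels name floxed alleles and no Cre, so the loss of a TRAF protein and the presence of the RIPCre transgene cannot be told apart where both knockouts move together. The series text writes TRAF2 for both knockouts, and the genotypes used here follow the sample labels. Whether each array is a separate animal is not given in the labels, so p-values measure the spread between samples, which may be partly technical.

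TRAF2 and TRAF3 are adaptor proteins that bring NF-kB inducing kinase (NIK, gene Map3k14) to the ubiquitin ligases that destroy it. When either adaptor is lost, NIK accumulates and drives processing of the precursor protein made by Nfkb2, and dimers with RelB then enter the nucleus (the non-canonical NF-kB pathway). A second pathway bears on the genes below: prolactin, placental lactogen and growth hormone act on beta cells through JAK2 and STAT5, and islets respond to them in pregnancy with serotonin synthesis by tryptophan hydroxylase and with the feedback inhibitors Cish and Socs2. Some published Cre transgenes driven by the rat insulin promoter also carry a human growth hormone sequence. The labels do not say which RIPCre line was used.

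One log2 value per gene was available for 22180 genes, and array medians lay between 4.80 and 4.96. The number of arrays limits the precision. For 6 of the 49 non-overlapping genes that can be named (Lrrc55, Fbxw24, Krtap13-1, Spic, Adgrf1 and Adarb2), the control mean lay below every array's median. The same held for Il6, Casp4, Cftr, Gbp3, Gbp4, Gbp11, Syt10 and Gstt4 below. The deposited values hold no detection call, so these control levels are not shown to be above background. Arrays of a group correlated at 0.9595 to 0.993. The islet label held in every array: Iapp, the amyloid peptide co-secreted with insulin, had 12.59, 12.67 and 12.84 (lowest, median, highest log2 signal) in the knockouts and 12.61, 12.69 and 12.86 in the controls, and Gcg, the glucagon precursor, lay between 12.70 and 12.98 in the knockouts and between 12.81 and 13.09 in the controls. Acinar enzymes were also abundant, with a mean log2 signal over 18 marker genes between 9.81 and 12.03 in knockout arrays, against 10.92 and 12.08 in control arrays. Traf2 itself averaged 7.21 ± 0.18 in the knockouts (SD, n = 12) and 7.0 ± 0.29 in the controls (SD, n = 6), a difference of 0.21 ± 0.09 (limma's standard error, SE) with an adjusted p of 0.255. In the TRAF2 knockout arrays it lay between 6.90 and 7.5, against 6.46 and 7.34 in the controls, a difference over both diets of 0.16 ± 0.10 (adjusted p = 0.763). Where its probes lie relative to the deleted part was not checked, so these values do not show the deletion. The Traf3 transcript is not reported here. Female-type signal (Xist above the Y-linked Eif2s3y) was found in 2 of 6 chow knockout arrays, 4 of 6 HFD knockout arrays, 1 of 3 chow control arrays and 3 of 3 HFD control arrays. Of the controls, chow control 3 was the highest in 160 of the 409 genes called higher below (39.1%) and chow control 2 in 126 (30.8%).

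Against the controls, with each of the 6 group means in 1 limma fit, 622 genes differed in the average over both knockouts and both diets (2.8% of genes; adjusted p under 0.05, hereafter called). Of these, 409 were higher (1.84%) and 213 were lower (0.96%). A difference in the average does not make a gene shared, and 72 of the 622 did not even have the same sign in all 4 comparisons of 1 knockout with control on 1 diet. Of the other 550, 52 (0.234% of all genes) had all 12 knockout arrays on one side of all 6 control arrays. These non-overlapping genes were mostly rises: 45 were higher (0.203%) and 7 were lower (0.0316%). The rises had a median of 1.17 on the log2 scale, and 31 of 45 were over 2-fold, against 127 of all 409 genes called higher. Of the 7 falls, none reached 2-fold, and they lay between -0.51 and -0.87. Non-overlap is a description of these 18 arrays, since the genes were chosen for it. The gap between the nearest knockout and the nearest control array was as narrow as 0.00215 on the log2 scale (Shisal2b) and as wide as 0.668 (Rasgrp1), and it was under 0.1 for 16 of the 49 non-overlapping genes that can be named.

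**Figure D1:**
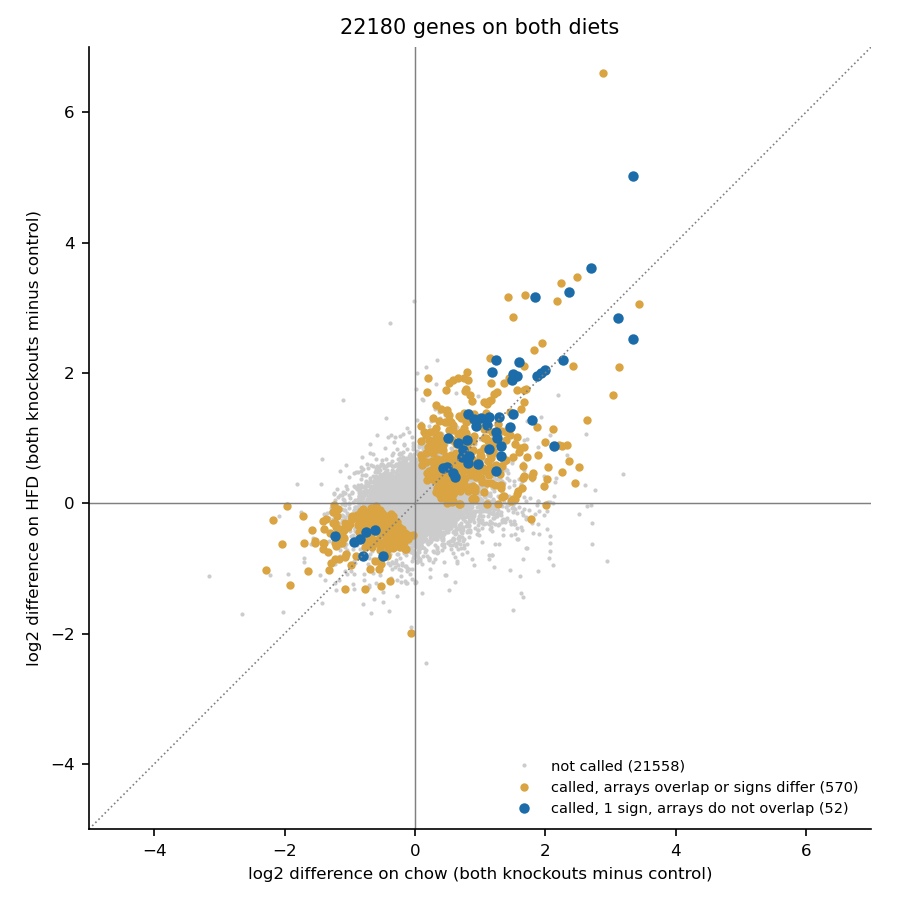
Log2 difference of both knockouts from control on HFD (vertical axis) against the same on chow (horizontal axis) for 22180 genes, with grey points not called in the combined comparison, orange points called and blue points called with 1 sign in all 4 comparisons and no overlap of arrays; the dotted line marks equal differences. The 52 blue points lie at the upper right and lower left, and the 45 higher ones reach 4.18 on the average of both diets.

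Genes of the response to lactogenic hormones were among the rises. Of 14 measured genes on a list of lactogen-responsive islet genes, 11 were called higher and none lower, where 1.84% of all genes were called higher. The list's median log2 difference was 1.87, against -0.01 over all genes. This list and those below were chosen with earlier results of these data known, so their counts and medians are descriptions. By comparison the list's median was 1.98 in chow TRAF2 knockouts, 2.15 in HFD TRAF2 knockouts, 0.85 in chow TRAF3 knockouts and 1.94 in HFD TRAF3 knockouts. The only 3 members not called were Ccnd2, Men1 and Foxm1, which belong to the cell cycle arm of the pregnancy response, at -0.33, 0.12 and -0.11.

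Lrrc55, an auxiliary subunit of large-conductance calcium-activated potassium channels, had 7.78, 8.80 and 9.46 in the knockouts and 3.53, 4.03 and 7.12 in the controls. All 12 knockout arrays lay above all controls, of which chow control 3 was the highest, and the difference was 4.18 ± 0.36 on the log2 scale (adjusted p = 2.79e-05), with the controls' dim signal as given above. Of the channel's own subunits, 7 were measured and none was called. A second, dimmer probe set of Lrrc55 moved the same way by 0.87 ± 0.11.

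Cish and Socs2, inhibitors of cytokine receptors that STAT5 induces, were higher in each of the 4 comparisons. Cish had 6.75, 7.16 and 7.46 in the knockouts and 5.52, 6.00 and 6.28 in the controls, a difference of 1.16 ± 0.11 (2.23-fold, adjusted p = 3.8e-05). The 4 differences of Cish were 1.23, 1.35, 0.99 and 1.06 (in the order chow TRAF2, HFD TRAF2, chow TRAF3 and HFD TRAF3, kept below). Socs2 had 10.48, 10.81 and 11.15 in the knockouts and 8.98, 9.70 and 10.10 in the controls, with 4 differences of 1.42, 1.14, 1.05 and 1.05. Neither gene's groups overlapped. Their relative Socs3, which also answers other cytokines, was called at 1.09 ± 0.17 but was not even: its 4 differences were 1.23, 0.11, 0.88 and 2.15, and these differed among themselves (moderated F test, adjusted p = 0.00763). A second, dimmer probe set of Socs3 was not called, at 0.43, while those of Cish and Socs2 were called, at 1.18 and 0.58. Stat5a, Stat5b and Jak2, which carry the signal, were not called at 0.01, -0.05 and 0.27.

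Tph1, the tryptophan hydroxylase that makes serotonin in islets, had the largest difference of all named genes at 4.75 ± 0.54, yet its groups overlapped. It had 6.86, 10.21 and 11.37 in the knockouts and 3.76, 4.13 and 8.30 in the controls. The control median, 4.13, lay below every array's median, so the control level is not shown to be above background. Chow control 3, at 8.30, lay above all 3 chow TRAF3 knockouts, at 6.86, 7.92 and 6.93, and above 1 chow TRAF2 knockout, at 7.87. The other 5 controls lay below every knockout array.

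The 4 Tph1 differences were 4.07, 6.88, 1.71 and 6.33, and the difference on HFD exceeded that on chow by 3.71 (95% interval 1.42 to 6.01, adjusted p = 0.226 over all genes, so not called). Cldn8, a tight junction claudin, and Gbp8, a guanylate-binding protein, had the same single overlapping control. Without chow control 3 the combined difference was 5.44 for Tph1, 3.93 for Cldn8 and 3.41 for Gbp8, against 4.75, 3.25 and 2.98 with it. Probes of Gbp8 may also read its near-identical relatives. Other members of the list called higher were the enzyme Tph2 (1.65 ± 0.23), the decoy receptor osteoprotegerin Tnfrsf11b (2.45 ± 0.30), the matrix protein Matn2 (2.30 ± 0.31) and the giant sarcomere protein Neb (2.08 ± 0.28). Of 10 genes for serotonin storage, breakdown and receptors, none was called, and Ddc, the next enzyme of the pathway, differed by -0.24 ± 0.17.

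Promoters were read for the genes that moved together, from 250 bases before to 50 bases after the RefSeq start on the mouse build GRCm38.p6. The palindromic STAT motif TTCNNNGAA, searched on both strands, was held by 8.30% of all 32851 such windows. It was held by 9.15% of 16990 tested genes with a window, by 12.9% of 302 genes called higher and by 4 of 29 higher non-overlapping genes. The windows of Cish, Rasgrp1 and Ivd are shown because these non-overlapping genes hold the motif, which is in capitals. The window of Cish lies at chr9:107296409-107296708 on the plus strand, that of Rasgrp1 at chr2:117342828-117343127 on the minus strand and that of Ivd at chr2:118861744-118862043 on the plus strand.
Cish: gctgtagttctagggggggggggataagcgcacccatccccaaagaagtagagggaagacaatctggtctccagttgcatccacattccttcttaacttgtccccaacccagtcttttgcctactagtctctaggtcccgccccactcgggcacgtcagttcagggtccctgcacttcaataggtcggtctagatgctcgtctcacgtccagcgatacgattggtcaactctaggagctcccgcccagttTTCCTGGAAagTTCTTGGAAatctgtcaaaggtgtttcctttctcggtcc
Rasgrp1: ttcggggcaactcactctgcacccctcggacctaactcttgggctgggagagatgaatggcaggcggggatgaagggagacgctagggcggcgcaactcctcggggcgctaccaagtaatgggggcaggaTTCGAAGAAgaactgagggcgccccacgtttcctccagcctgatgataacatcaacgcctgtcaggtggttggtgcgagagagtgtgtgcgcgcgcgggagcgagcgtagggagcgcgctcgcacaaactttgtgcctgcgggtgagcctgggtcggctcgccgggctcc
Ivd: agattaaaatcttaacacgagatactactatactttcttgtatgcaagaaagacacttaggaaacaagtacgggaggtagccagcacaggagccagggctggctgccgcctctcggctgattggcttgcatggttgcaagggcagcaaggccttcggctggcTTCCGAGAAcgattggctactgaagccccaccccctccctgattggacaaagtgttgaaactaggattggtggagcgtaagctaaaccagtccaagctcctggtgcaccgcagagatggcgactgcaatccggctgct
Cish holds the motif as a pair, at bases 1 to 9 and 12 to 20 counted from its start, while Rasgrp1 holds it at -120 to -112 and Ivd at -88 to -80. Of the 29 higher non-overlapping genes with a window, Wipi1 was the other with a match. Socs2 was among those without a window, and the falls were not searched. Of genes called higher among the lactogen-responsive genes and the lactogen receptor, STAT5 and SOCS genes, 4 of 8 with a window held the motif. A match of letters is not a site of binding.

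Several receptors, peptides and adhesion proteins are described next, grouped for reading with no list or count behind the grouping. Gfra3, the receptor that binds artemin and signals with RET, had 9.12, 10.09 and 10.51 in the knockouts and 6.57, 8.15 and 8.63 in the controls, a difference of 2.02 ± 0.22 (4.05-fold, adjusted p = 0.000117). Ngfr, the low-affinity neurotrophin receptor, had 6.32, 6.71 and 6.96 in the knockouts and 5.07, 5.58 and 5.88 in the controls, a difference of 1.16 ± 0.11. Both genes separated every knockout from every control array, and the 4 Ngfr differences, 0.93, 1.32, 1.08 and 1.30, were even. Ngfr is also a Schwann cell marker. The 5 other measured Schwann and neural markers (S100b, Sox10, Gfap, Cdh19 and Foxd3) were not called and differed by at most 0.22 in size, with S100b at a median of 3.76 in the knockouts and 3.88 in the controls.

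Penk, the precursor of the enkephalin opioid peptides, had 6.46, 7.05 and 7.80 in the knockouts and 5.48, 5.64 and 6.26 in the controls, a rise of 1.31 ± 0.16. Pdyn, which encodes the related dynorphins, rose by 1.71 ± 0.23, with 4 nearly equal differences of 1.56, 1.72, 1.79 and 1.75. Pdyn had 9.35, 10.91 and 11.55 in the knockouts and 7.83, 9.20 and 10.16 in the controls. Its ranges overlapped over both diets but not within a diet, since both genotypes were lower on HFD. Lrrtm2, a synaptic adhesion protein that binds neurexins, rose by 1.74 ± 0.22, and Kirrel3, an immunoglobulin-type adhesion protein of synapses, by 1.09 ± 0.19. The adhesion G protein-coupled receptors Adgrg6, known for Schwann cell myelination, and Adgrf1 rose by 1.91 ± 0.20 and 1.88 ± 0.23.

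Rasgrp1, a diacylglycerol-controlled activator of RAS, had 7.51, 8.12 and 9.0 in the knockouts and 4.18, 5.0 and 6.84 in the controls. The 4 differences, 3.16, 2.76, 3.07 and 2.93, were close to one another, and the combined difference was 2.98 ± 0.31 (7.88-fold, adjusted p = 8.92e-05). The TRAF3 minus TRAF2 difference of Rasgrp1 was 0.04, with a 95% interval of -0.72 to 0.80. Of 9 measured RAS exchange factors it was the only one called. Rerg, a RAS-like small GTPase, had 7.64, 8.38 and 8.85 in the knockouts and 5.07, 5.55 and 7.37 in the controls, a rise of 2.51 ± 0.22.

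Kcnk10, a background potassium channel, had 6.58, 6.76 and 7.62 in the knockouts and 4.62, 5.17 and 6.13 in the controls, a rise of 1.70 ± 0.17. Kcnj5, a G protein-gated potassium channel subunit, rose by 1.61 ± 0.16 and overlapped over both diets only. Scnn1a, the alpha subunit of the epithelial sodium channel, rose by 0.50 ± 0.10. The amino acid exchanger subunit Slc7a7 rose by 1.53 ± 0.22, the branched-chain aminotransferase Bcat1 by 1.31 ± 0.15 and Ivd, isovaleryl-CoA dehydrogenase of leucine breakdown, by 1.05 ± 0.12. Ogdhl, a mitochondrial oxoglutarate dehydrogenase relative, rose by 1.10 ± 0.13. B3galnt1 and St3gal5, both enzymes of glycolipid synthesis, rose by 1.10 ± 0.12 and 0.52 ± 0.09.

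**Figure D2:**
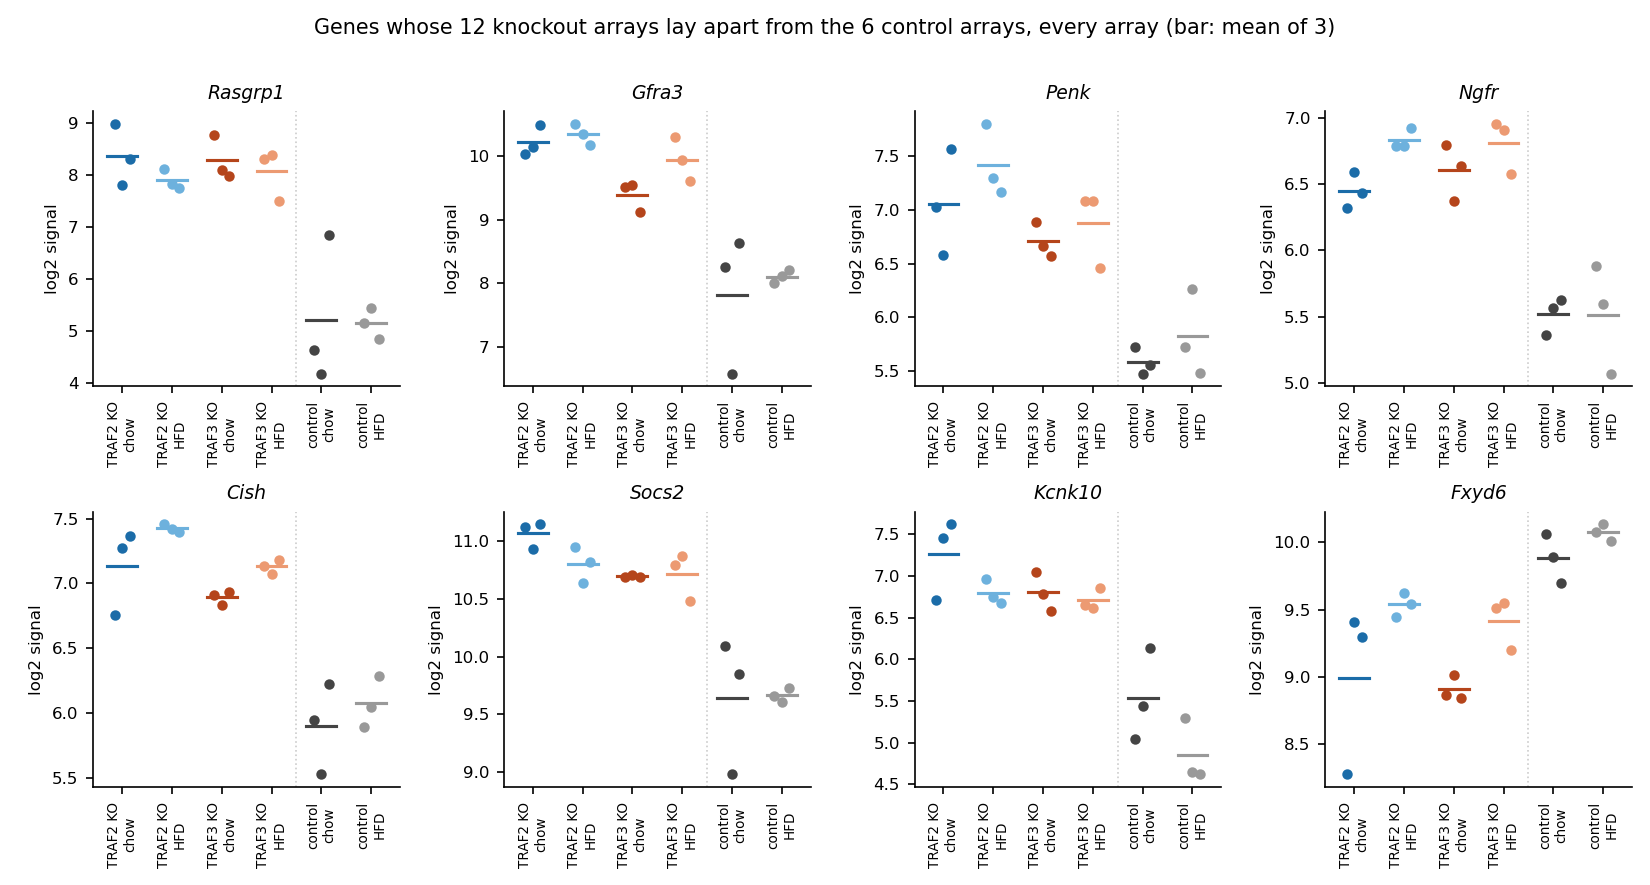
Log2 signal of every array (points, 3 per group, with the group mean as a bar) for 8 non-overlapping genes, with the 4 knockout groups left of the dotted line and the 2 control groups right of it. In Rasgrp1 the knockouts lie between 7.51 and 9.0 and the highest control, chow control 3, at 6.84; in Fxyd6 the knockouts lie below all controls.

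Secreted proteins and transcription factors were also among the named rises. Crispld2, a secreted protein of the CRISP family, had 8.14, 9.13 and 10.07 in the knockouts and 5.14, 6.08 and 7.82 in the controls, a rise of 2.93 ± 0.27 (7.64-fold, adjusted p = 4.16e-05). Sftpd, the collectin surfactant protein D, had 7.60, 8.58 and 9.40 in the knockouts and 4.74, 5.05 and 7.33 in the controls, a rise of 3.15 ± 0.32. In both genes the highest control was chow control 3. Spic, an ETS transcription factor known from red pulp macrophages, rose by 1.96 ± 0.26, and Ehf, an epithelial ETS factor, by 0.72 ± 0.11. Of 18 myeloid markers 1 was called, Cd14 at 1.29 ± 0.32 (lost in 19 of 32 alternatives), and the markers' mean log2 signal lay between 6.01 and 8.06 in knockout arrays, against 5.98 and 8.10 in control arrays. The part of such cells in the Spic rise was not tested.

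Other non-overlapping rises named by rule were the hair protein gene Krtap13-1 (2.23 ± 0.25), the F-box gene Fbxw24 (2.80 ± 0.21), Fam163a (1.44 ± 0.18) and the junction protein gene Tmem47 (1.76 ± 0.20). Syt10 and Gstt4, named by rule for their size, were called at 2.81 and 2.64 in the limma fit (adjusted p = 2.79e-05 and 0.00358). Neither is among the non-overlapping genes, and neither separated within each diet. Fbxw24 has close relatives that its probes may also read, and a second, dim probe set of Tmem47 was not called, at 0.33. The other non-overlapping rises fall outside the rule for named genes and are named with their values known. Among them Srbd1 and Adarb2 differed by 1.71 and 1.60. Wipi1, which binds phosphoinositides in autophagy, rose by 0.98 ± 0.13, Washc5 of the WASH endosomal complex by 0.78 ± 0.11 and Serinc5 by 0.77 ± 0.11.

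The named falls that separated all arrays were 5 in number and small. Fxyd6, a regulator of the sodium pump, had 8.27, 9.35 and 9.63 in the knockouts and 9.69, 10.04 and 10.13 in the controls, and fell by 0.76 on the log2 scale (SE 0.13, adjusted p = 0.00495). Mlph, melanophilin, which links secretory granules to myosin, had 6.82, 7.12 and 7.47 in the knockouts and 7.51, 7.80 and 8.06 in the controls, and fell by 0.70 (SE 0.09). Every knockout array was below every control array in both, by margins of 0.07 and 0.04. Ugt2b34, a glucuronosyltransferase whose probes may read relatives, fell by 0.81, Lancl3 by 0.87 and Tmem179 by 0.65. A second probe set of Lancl3, with little signal, differed by -0.02. Larger falls were called but overlapped over all arrays. Vsnl1, a neuronal calcium sensor, fell by 1.65 (SE 0.31) with 4 differences of -1.60, -0.78, -2.97 and -1.26. Sult1d1 differed by -1.17 ± 0.19, with 4 differences of -1.18, -0.89, -1.46 and -1.17, and Abcd2 by -1.10 ± 0.23. Vsnl1, Sult1d1 and Abcd2 separated knockout from control arrays within each diet, a criterion described below. The others of the 10 largest falls named by rule did not. These were Hapln1 (-1.34), Pappa2 (-1.33), Insrr (-1.22), Acta2 (-1.20), Tnr (-1.16), Calb1 (-1.08) and C8b (-1.06). The Calb1 call was lost in 21 of 32 alternatives.

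**Figure D3:**
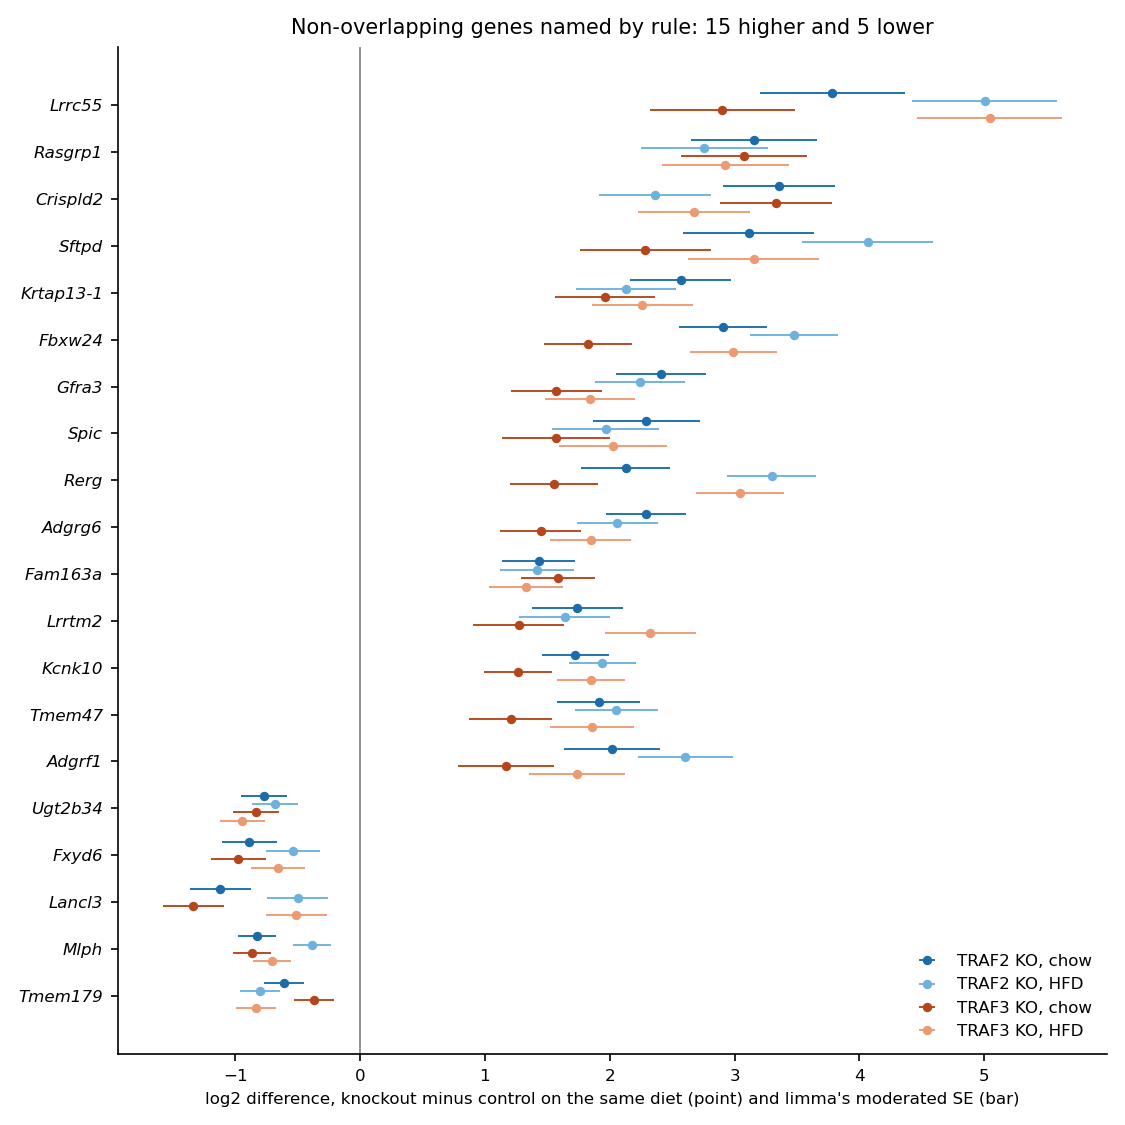
Log2 difference from control on the same diet in each of the 4 comparisons (points) with limma's standard error (bars) for the 15 higher and 5 lower non-overlapping genes named by rule, in the order of their smallest difference. All 4 points of each gene lie on 1 side of 0; those of Rasgrp1 lie between 2.76 and 3.16, those of Lrrc55 between 2.90 and 5.04.

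A stricter test asked that a gene differ in each of the 4 comparisons on its own, taking the largest of the 4 limma p-values where all 4 differences had 1 sign. After adjustment over all genes no gene passed, although 131 (0.591%) had a largest unadjusted p under 0.05, of which 105 were higher (0.473%) and 26 lower (0.117%). Of the 49 named non-overlapping genes, 46 were among them. Those genes were chosen for separation in the same arrays, so a high count follows largely from the choice and is a description. The controls of 1 diet enter 2 of the 4 comparisons, so chow control 3 weighed on both chow comparisons. It was the highest control in 26 of the 45 higher non-overlapping genes, and it was chosen for leaving out with this known, so more calls among higher genes without it follow from the choice. Without it, 12 genes passed this test, all higher: Adgrg6, Cish, Cldn8, Crispld2, Fbxw24, Gbp8, Kcnk10, Krtap13-1, Lrrc55, Rasgrp1, Rerg and Sftpd. Of these, 10 were non-overlapping with all arrays in, and Cldn8 and Gbp8 were the other 2. Leaving it out also widened the set of non-overlapping genes to 99, with all 52 kept.

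The knockouts were also compared with each other. For TRAF3 minus TRAF2 knockout over both diets, 61 genes were called (0.275%), of which 32 were among the 622 and none among the 52. The smallest adjusted p of this difference among the 49 named genes was 0.111, for Cblc. A test for any difference among the 4 knockout effects called 885 genes (3.99%), including 132 of the 622 and 2 of the 52. These 2 were Gpr182, an endothelial chemokine-binding receptor, with 4 differences of 1.02, 0.72, 1.62 and 0.74 (adjusted p = 0.0361), and Cblc, a ubiquitin ligase, with 0.85, 0.39, 1.65 and 0.60 (adjusted p = 0.0172). For the other 50 a p that missed the threshold does not show equal effects. The interval of the TRAF3 minus TRAF2 difference ran from -1.29 to 0.45 for Lrrc55, from -0.53 to -0.01 for Cish and from -0.20 to 0.34 for Ngfr.

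The diets, whose arrays are separate, were also compared. On chow, 672 genes were called for both knockouts together (3.03%), and on HFD 158 (0.712%). Of the genes called higher, 62 were common to both, which is 14.3% of the 433 on chow (1.95% of genes) and 45.3% of the 137 on HFD (0.618%). The genes called higher on HFD leaned the same way on chow in 129 of 137 (94.2%), with a median chow difference of 0.75, whereas 47.4% of all genes were higher on chow. The genes called higher on chow were higher on HFD in 306 of 433 (70.7%), with a median HFD difference of 0.19 and a chow median of 1.00. Of the genes called lower, 2 were common, 0.837% of 239 on chow (1.08% of genes) and 9.52% of 21 on HFD (0.0947%), and no gene was called in opposite directions. Across all genes the chow and HFD differences had a Pearson r of 0.30 and a Spearman rho of 0.13, as a description over genes that are not independent. The difference between the diets' effects, tested directly, called no gene in limma, with 2713 (12.2%) at an unadjusted p under 0.05.

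Some genes of the NF-kB pathways were called in the combined comparison, and none of those named here was among the non-overlapping genes. Of 8 measured genes of the non-canonical pathway and its restraint, 4 were called higher (Map3k14, Nfkb2, Relb and Birc3) and none lower, and 7 of 8 were higher in all 4 comparisons, which share controls within a diet (11.8% of all genes were higher in all 4 and 15.5% lower). The Map3k14 call (adjusted p = 0.0363) was lost in 18 of 31 alternatives and the Rel call in 14 of 32. Of 15 canonical subunits and feedback inhibitors, 6 were called higher and none lower. Over all genes, 1.84% were called higher. Nfkb2 had 7.74, 7.98 and 8.31 in chow TRAF2 knockouts, 8.35, 8.58 and 8.83 in chow TRAF3 knockouts and 6.16, 7.53 and 7.64 in chow controls. On HFD it had 6.90, 7.06 and 7.15 in TRAF2 knockouts, 7.94, 7.99 and 8.16 in TRAF3 knockouts and 6.20, 6.55 and 6.56 in controls. Within each diet every knockout array was above every control array, but the HFD TRAF2 knockouts lay below 2 chow controls. The combined difference was 1.14 ± 0.18 (adjusted p = 0.00171). Over both diets Nfkb2 differed by 0.75 in TRAF2 knockouts (adjusted p = 0.140) and by 1.54 in TRAF3 knockouts (adjusted p = 0.000733), and the difference between the knockouts was not called (0.79, adjusted p = 0.138). In TRAF2 knockouts Birc3 and Rel were not called either (adjusted p = 0.0806 and 0.424), while Tnip1 was called in both knockouts, at 0.68 and 1.03 (adjusted p = 0.00155 and 0.000180).

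Separation within each diet, a criterion added after the values were seen, held for 132 of the called genes with 1 sign (0.595% of all genes), 80 more than separation over all arrays. It took in Nfkb2, Birc3, an inhibitor of apoptosis and NIK ligase, Rel, a canonical subunit, and the feedback inhibitors Nfkbia, Nfkbie and Tnip1. Tnip1, a partner of the deubiquitinase Tnfaip3 in restraining the canonical pathway, was the most even of these with differences of 0.74, 0.62, 1.03 and 1.03 (combined 0.85 ± 0.08, adjusted p = 6.45e-05). Tnfaip3 was called at 1.25 ± 0.25 and overlapped within a diet. Birc3 was less even at 0.99, 0.12, 1.63 and 0.78, its 4 effects differed (adjusted p = 0.0186), and its gap between knockout and control arrays on HFD was 0.000287. Also added in this way were Tnfrsf9, a receptor of the tumour necrosis factor family, at 1.47 ± 0.18, Gsdma, a gasdermin, at 2.61 ± 0.36, the growth factor-binding protein Igfbp5 at 1.12 ± 0.13 and Stc1, a secreted glycoprotein, at 1.72 ± 0.30. The 4 effects of Igfbp5 and Stc1 differed among themselves (moderated F test, adjusted p = 0.0496 and 0.0467).

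The promoter windows of these genes were searched in the same way for an NF-kB motif (GGG, any 2 bases, TTTCC). This motif was held by 1.63% of all windows, by 1.87% of tested genes, by 5.96% of genes called higher, by 1 of 29 higher non-overlapping genes (Bcat1) and by 4 of 9 NF-kB genes called higher (Nfkb2, Nfkbia, Rel and Tnfaip3). The windows of Nfkb2 at chr19:46304487-46304786 on the plus strand and Nfkbia at chr12:55492598-55492897 on the minus strand are shown as the non-canonical and the canonical example. Capitals mark the motif on either strand and, upstream in Nfkb2, a match to the STAT motif.
Nfkb2: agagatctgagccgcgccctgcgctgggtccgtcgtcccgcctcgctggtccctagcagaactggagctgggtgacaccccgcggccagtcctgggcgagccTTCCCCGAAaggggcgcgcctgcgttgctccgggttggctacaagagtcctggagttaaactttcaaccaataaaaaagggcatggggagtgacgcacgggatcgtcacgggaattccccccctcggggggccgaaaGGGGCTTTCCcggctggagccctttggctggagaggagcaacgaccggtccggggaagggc
Nfkbia: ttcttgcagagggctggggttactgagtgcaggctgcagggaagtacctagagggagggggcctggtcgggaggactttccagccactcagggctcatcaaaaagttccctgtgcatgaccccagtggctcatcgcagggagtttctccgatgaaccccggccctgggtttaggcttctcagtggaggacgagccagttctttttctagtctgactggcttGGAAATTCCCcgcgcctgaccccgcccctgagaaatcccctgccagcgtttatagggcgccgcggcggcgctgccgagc
The NF-kB match lies at -11 to -2 from this start of Nfkb2 and at -29 to -20 from that of Nfkbia.

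**Figure D4:**
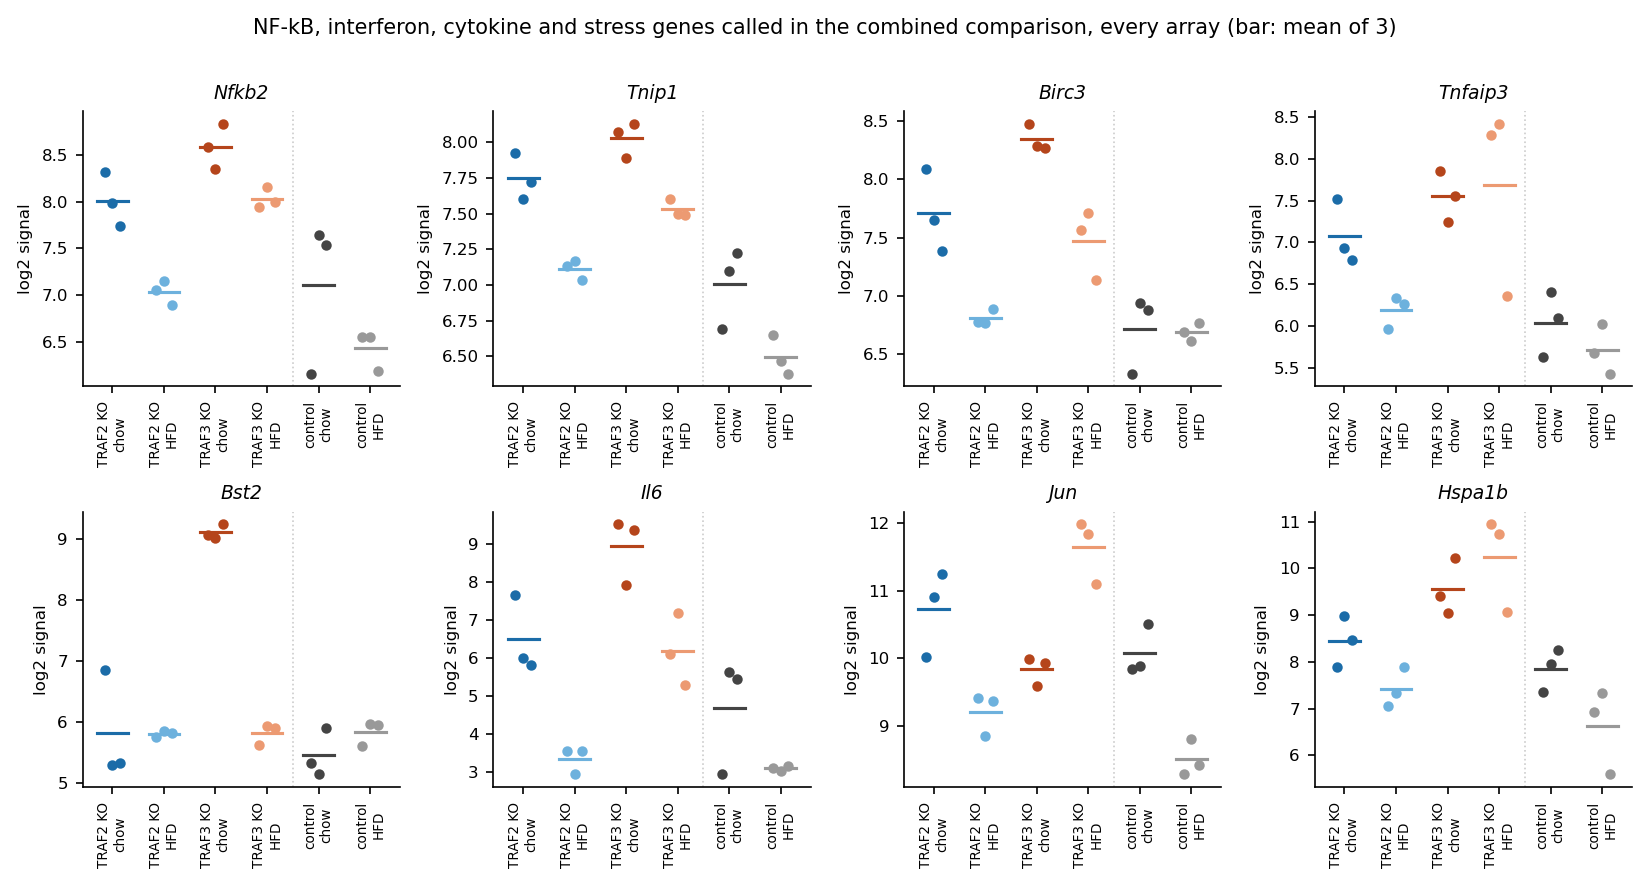
Log2 signal of every array (points, with the group mean as a bar) for 8 genes called in the combined comparison whose knockout and control arrays overlap, with the 4 knockout groups left of the dotted line and the 2 control groups right of it. Nfkb2 and Tnip1 separate within each diet, Bst2 is high in chow TRAF3 knockouts alone, and Jun is highest in HFD TRAF3 knockouts.

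Other immune and stress genes were called in the average over knockouts and diets, but none on the lists given here was non-overlapping. Counts called higher are to be read against 1.84% of all genes. The guanylate-binding proteins Gbp11 and Gbp4 separated within each diet. Gbp11 had 4 differences of 3.06, 1.74, 1.79 and 2.46. Those of Gbp4 were 2.29, 0.51, 2.44 and 0.80, and differed among themselves (moderated F test, adjusted p = 0.0277). Of 22 interferon-stimulated genes 9 were called higher, but the list's 4 medians were 0.39, 0.10, 2.04 and 0.13, with the chow TRAF3 knockouts apart from the rest. Bst2, an antiviral tether, had 9.06, 9.02 and 9.24 in chow TRAF3 knockouts, between 5.30 and 6.85 in the other knockouts and between 5.14 and 5.96 in controls. Il6, the cytokine, had 4 differences of 1.81, 0.25, 4.26 and 3.09 (combined 2.35 ± 0.40), and the HFD TRAF2 knockouts, at 2.94 to 3.56, lay among the controls, at 2.97 to 5.63. Of 15 immediate early genes 5 were called higher, with medians of 0.78, 0.26, 0.01 and 2.80, here with the HFD TRAF3 knockouts apart. Of 28 chemokine, cytokine and adhesion genes 7 were called higher, and among them Cxcl10, a ligand of a receptor of activated T cells, had 6.15, 7.96 and 9.63 in the knockouts and 4.42, 5.0 and 8.17 in the controls, with differences of 1.66, 2.54, 2.25 and 2.38. Cxcl11, which RefSeq annotates as a transcribed pseudogene in this build, was also called, at 1.88. Of 14 lymphocyte markers none was called, but 7 were higher in all 4 comparisons, against 11.8% of all genes. The markers' list mean lay between 5.0 and 8.00 in knockout arrays, against 5.18 and 6.41 in control arrays. Their part in the Cxcl10 result was not tested.

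**Figure D5:**
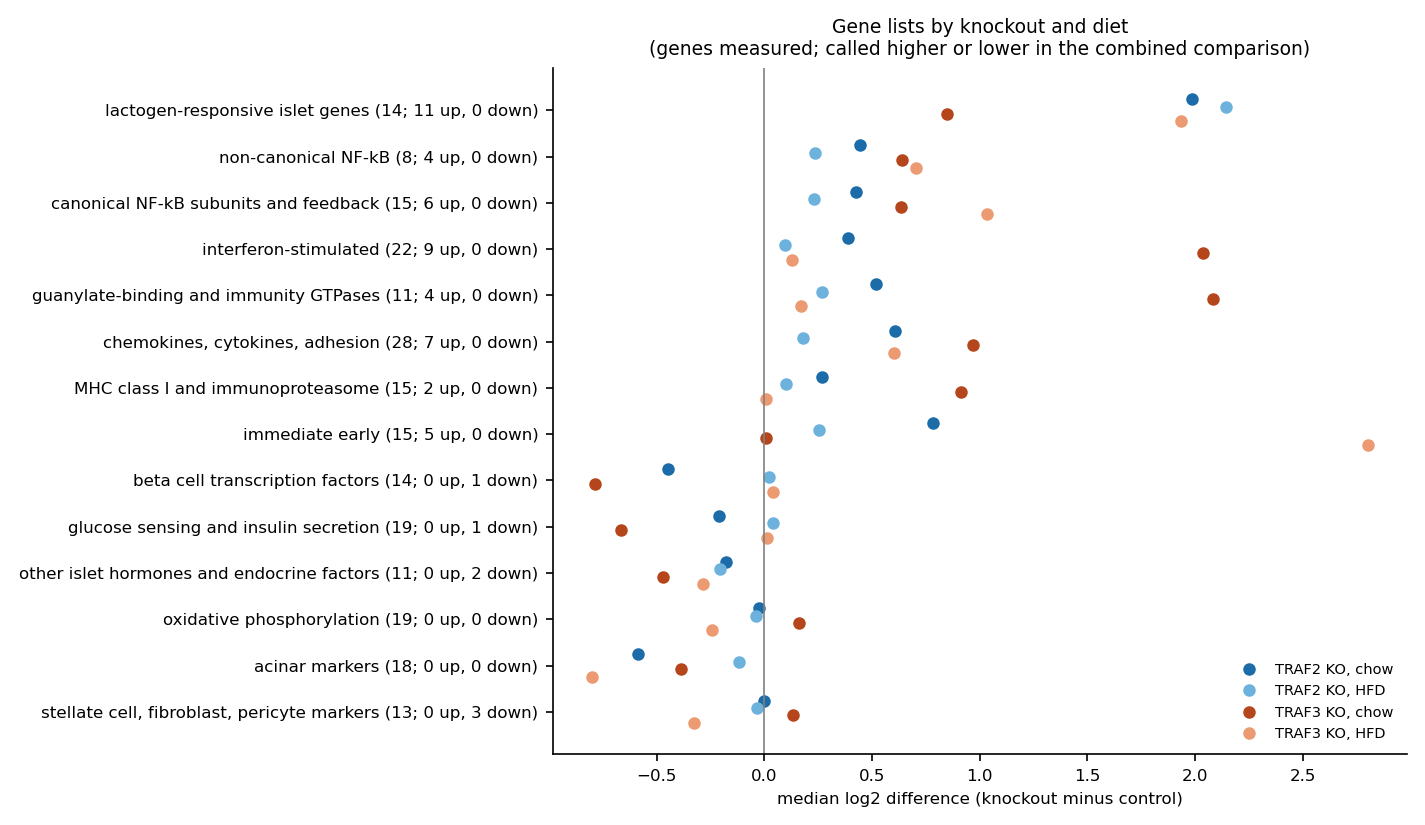
Median log2 difference from control on the same diet for 14 gene lists (rows, with the genes measured and the numbers called higher and lower in the combined comparison) in each of the 4 comparisons (coloured points). The lactogen-responsive list lies at 0.85 to 2.15 in all 4, the interferon list at 2.04 in chow TRAF3 knockouts and at 0.10 to 0.39 in the other 3, and the immediate early list at 2.80 in HFD TRAF3 knockouts.

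Among beta cell identity genes, the counts called are to be read against 2.8% of all genes, and list medians were lower on chow than on HFD. The medians of the 14 beta cell transcription factors were -0.45, 0.02, -0.79 and 0.04, and those of 7 beta cell markers were -0.59, 0.02, -1.47 and -0.03. Of the transcription factors 1 was called, Foxa2, a forkhead factor of endoderm and islets, which had 8.03, 8.13 and 8.69 in the knockouts and 8.54, 8.81 and 9.05 in the controls (difference -0.55 ± 0.08). Of 19 genes of glucose sensing and insulin secretion 1 was called, the granule zinc transporter Slc30a8 (-0.81 ± 0.20, with differences of -0.74, -0.15, -1.98 and -0.34, a call lost in 16 of 32 alternatives). Ins2, an insulin gene, differed by -0.20 ± 0.11 and the glucose transporter Slc2a2 by -1.14 ± 0.32, and neither was called (adjusted p = 0.373 and 0.0708). Of 11 other islet hormone and endocrine genes, 9 were lower in all 4 comparisons, which share controls, against 15.5% of all genes. Of the 11, 2 were called, the alpha cell factor Irx2 (-0.56 ± 0.14, lost in 18 of 32 alternatives) and the amino acid transporter Slc7a2 (-0.66 ± 0.14). In whole islets, fewer cells of a type and less RNA per cell cannot be told apart. Of 18 acinar markers none was called and 15 were lower in all 4 comparisons, and of 8 ductal markers 1 was called, Cftr at 1.41 ± 0.31. Of 13 stellate and pericyte markers 3 were called lower, against 0.96% of all genes, but only 2 were lower in all 4 comparisons. The list's median was -0.04. Acta2, the largest of these falls, had differences of -1.26, -0.05, -0.90 and -2.58, which differed among themselves (moderated F test, adjusted p = 0.0131). Among 16 genes of apoptosis and cell cycle arrest 3 were called higher, against 1.84% of all genes. These were Casp4 at 1.31, the cell cycle inhibitor Cdkn1a at 1.30 and Gadd45b at 0.90. Lists of oxidative phosphorylation, lipid synthesis and genes normally silent in beta cells had no member called.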

How the data were processed

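Islet RNA from 18 mouse samples was measured on whole-transcript arrays. The deposited log2 values had been normalized by the authors with RMA, per the submitters' processing notes, which also name limma. Joint normalization of the 18 arrays is not given in the sources used here. Of 41345 probe sets, 23521 had 1 gene symbol, 1814 several and 16010 none. One row per gene was kept (of several, that with the highest mean), leaving 22180 genes.

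Group means were fitted with limma 3.58.1 in R 4.3.3 (lmFit, eBayes; 12 residual and 3.69 prior degrees of freedom), with Benjamini-Hochberg adjustment over all genes and a threshold of 0.05, and the fit was tested on simulated data. The combined comparison averages the 4 differences from control on the same diet. Genes were named by rule: Traf2, the 15 higher and up to 10 lower non-overlapping genes with the largest smallest difference, the 10 largest in each direction, up to 4 called members per list, and up to 5 in each direction whose effects differed between knockouts or diets. Members and lists were chosen with earlier results of these data known. Replicate numbers were not treated as pairs. Same-number deviations correlated at -0.549 to 0.529, over 0.1 in 16 of 45 pairs, which cannot exclude a pairing since the number also followed sex. The number followed sex on chow, where replicate 1 alone was female-type in the 3 groups, and in the HFD knockouts, where replicate 1 alone was male-type. Promoters came from RefSeq on GRCm38.p6. Alternatives covered centring, quantile scaling, probe set choice, dim genes, covariates and arrays left out. The Traf3 transcript is not reported here.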

Additional observations from a re-analysis of the deposited data

Results flagged for a closer look

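Among genes called in the combined comparison and named by rule, 13 differed between the knockouts, tested as TRAF3 minus TRAF2 over both diets in the same limma fit. Higher in TRAF3 than in TRAF2 knockouts were the cytokine Il6 by 2.64 on the log2 scale, the heat shock genes Hspa1b by 1.97 and Hspa1a by 1.496, the chemokine Ccl2 by 1.88, and the interferon-responsive genes Bst2 by 1.64, Gbp3 by 1.37, Rsad2 by 1.34 and Usp18 by 0.76. Probes of Hspa1a and Hspa1b may read both genes. The difference of the macrophage genes Retnla and F13a1 was -1.89 and -1.78, that of Cbr2 was -1.40, that of the smooth muscle gene Myh11 was -1.06 and that of Ambp was -0.89. None of the 13 is among the non-overlapping genes.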

How the results depend on the processing

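With the replicate block, 627 genes were called in the combined comparison, against 622 without it, and 557 were shared. An additive fit of diet and knockout called 258, all among the 622. The acinar score as a covariate called 1379, of which 42.1% were higher, against 65.8% without it, and it gave 2174 on chow (672 without), 536 for TRAF3 minus TRAF2 (61) and 2148 for any difference among the 4 effects (885). The ductal score gave 233 on chow, 397 on HFD (158 without), 7 for TRAF3 minus TRAF2 and 340 for any difference. With every probe set the counts were 371 on chow, 10 for TRAF3 minus TRAF2 and 486 for any difference. TRAF3 minus TRAF2 gave 28 with arrays centred and 231 with the lymphocyte score. Without chow control 3, 12 genes passed in each comparison, 99 did not overlap and 34 differed between knockouts. Without chow TRAF2 knockout 1 and HFD TRAF3 knockout 2, 378 differed between knockouts, 19 by diet and 1790 in any way. The causes were not tested.

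Leaving out 1 array gave 342 (chow control 1) to 865 (HFD TRAF3 knockout 3) combined calls, 91 (chow control 1) to 977 on chow and 69 (HFD control 3) to 326 on HFD, the highest both without HFD TRAF3 knockout 3. It gave 0 to 12 passing each comparison, 52 to 99 non-overlapping, 7 (HFD TRAF2 knockout 3) to 419 for TRAF3 minus TRAF2, 0 to 11 for knockout by diet and 190 (chow TRAF3 knockout 3) to 1931 for any difference, the last 3 highest without chow TRAF2 knockout 1. Of 49 named non-overlapping genes, 48 were called in the combined comparison under every alternative they entered, of 31 distinct ones. The exception was Tubb2a. Of 67 other named called genes, 19 were called under every alternative, and no gene of either set reversed. The 49 were chosen for separation in these same arrays, so their steadier calls partly follow from the choice. These alternatives concern the average difference and do not test sharing across the 4 comparisons. Leaving out dim genes removed 4 of the 49 (Adarb2, Adgrf1, Fbxw24 and Krtap13-1), which were not tested there. Where calls lost are given out of 31 or 32 alternatives, leaving out chow control 3 is counted as 2 of them.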
